A study of Mus musculus with 6 samples.

Results

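The 32 genes described here act in the endoplasmic reticulum (ER), where secreted and membrane proteins fold. They comprise stress sensors, chaperones, disulfide isomerases, factors of ER-associated degradation and parts of the translocation machinery. They were chosen by name, and all 32 were found among the 23282 rows of the count table. RNA was read near its 3' ends in alveolar macrophages, the resident phagocytes of the airspaces, sorted from mouse lung by flow cytometry (CD45+, CD11c+, F4/80+, SiglecF+, CD11b-). There were 3 libraries from wildtype mice and 3 from mice with floxed Sdha alleles and LysM-Cre, which is active in myeloid cells (Sdha-KO). Sdha encodes a catalytic subunit of succinate dehydrogenase, an enzyme of the tricarboxylic acid cycle and the respiratory chain. The labels number the replicates 1 to 3 in each genotype and give the same number as a batch. Strain, age, whether wildtype mice carried Cre or floxed alleles, and whether a library held 1 mouse or a pool were not given in the sources used here. The p-values therefore set the genotype difference against the variation between these libraries, part of which may be technical. The question was whether an ER response went with the stress response run by the transcription factor ATF4.

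Unfolded protein in the ER is sensed by a set of membrane proteins. IRE1, encoded by Ern1, splices the mRNA of the transcription factor XBP1. ATF6 is cleaved to release a transcription factor. PERK, encoded by Eif2ak3, phosphorylates the translation factor eIF2alpha, which favours translation of ATF4. Other kinases phosphorylate the same factor in response to amino acid shortage, haem shortage, mitochondrial stress or double-stranded RNA, so ATF4 targets can be induced without the ER. ATF6 and XBP1 induce ER chaperones and degradation factors such as Hspa5 and Herpud1, while ATF4 induces genes of amino acid supply and stress factors such as Asns and Trib3.

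A few promoter stretches are shown first, because they hold the sequence elements named for the ER chaperone response and for the ATF4 response. The ER stress response element (ERSE) was searched as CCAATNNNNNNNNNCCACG, the related ERSE-II as ATTGGNCCACG, the core of the unfolded protein response element as TGACGTGG and the ATF4 element (CARE) as TGATGNAA, each on both strands, in the 300 bases from 250 before to 50 after each RefSeq start site (build GRCm38.p6). Promoters were listed for 28 of the 32 genes. An ERSE was found in 9 of the 28 (32.1%), against 0.137% of 27025 genes, and an ERSE-II in 2 (Herpud1 and Dnajb11), against 0.0444%. CARE matched 1 of the 28 (Herpud1), against 4.51% of all genes, and the TGACGTGG core matched none, against 0.714%. Among 34 genes of an ATF4 list with a promoter, 12 held a CARE match (35.3%) and none an ERSE. Both lists were put together for the responses after which the motifs are named, so these shares describe the lists and test nothing. None of the 4 motifs matched in the windows of Pdia3, P4hb, Sec61b or Os9, which are described below.

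Bases run 5′ to 3′ on the gene's strand, with motif matches in capitals. A match on the opposite strand appears as its reverse complement. The ERSE stretches lie at chr2:34771970-34772070 (plus strand, Hspa5), chr10:86705524-86705664 (minus, Hsp90b1, with 2 matches), chr8:84847051-84847111 (minus, Calr) and chr12:17266469-17266529 (plus, Pdia6). Herpud1 at chr8:94386309-94386394 (plus) holds a CARE match first and an ERSE-II second.
Hspa5: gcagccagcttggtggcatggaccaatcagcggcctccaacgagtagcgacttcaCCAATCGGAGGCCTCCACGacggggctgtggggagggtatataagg
Hsp90b1: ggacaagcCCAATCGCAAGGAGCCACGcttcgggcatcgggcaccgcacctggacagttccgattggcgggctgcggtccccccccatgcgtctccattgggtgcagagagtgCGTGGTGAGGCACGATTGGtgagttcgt
Calr: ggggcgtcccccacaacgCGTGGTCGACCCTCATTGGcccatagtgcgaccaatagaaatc
Pdia6: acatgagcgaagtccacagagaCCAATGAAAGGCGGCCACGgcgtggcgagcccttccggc
Herpud1: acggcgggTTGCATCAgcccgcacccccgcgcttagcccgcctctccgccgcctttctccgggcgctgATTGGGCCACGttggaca

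For comparison, these are CARE matches of the ATF4 list, at chr6:7693210-7693269 (Asns), chr2:152344011-152344080 (Trib3) and chr1:191183413-191183463 (Atf3), all on the minus strand.
Asns: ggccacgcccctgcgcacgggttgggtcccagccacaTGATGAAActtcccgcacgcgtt
Trib3: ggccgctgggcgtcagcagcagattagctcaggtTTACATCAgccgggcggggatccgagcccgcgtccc
Atf3: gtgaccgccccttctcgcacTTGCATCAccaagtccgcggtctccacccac

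**Figure D1:**
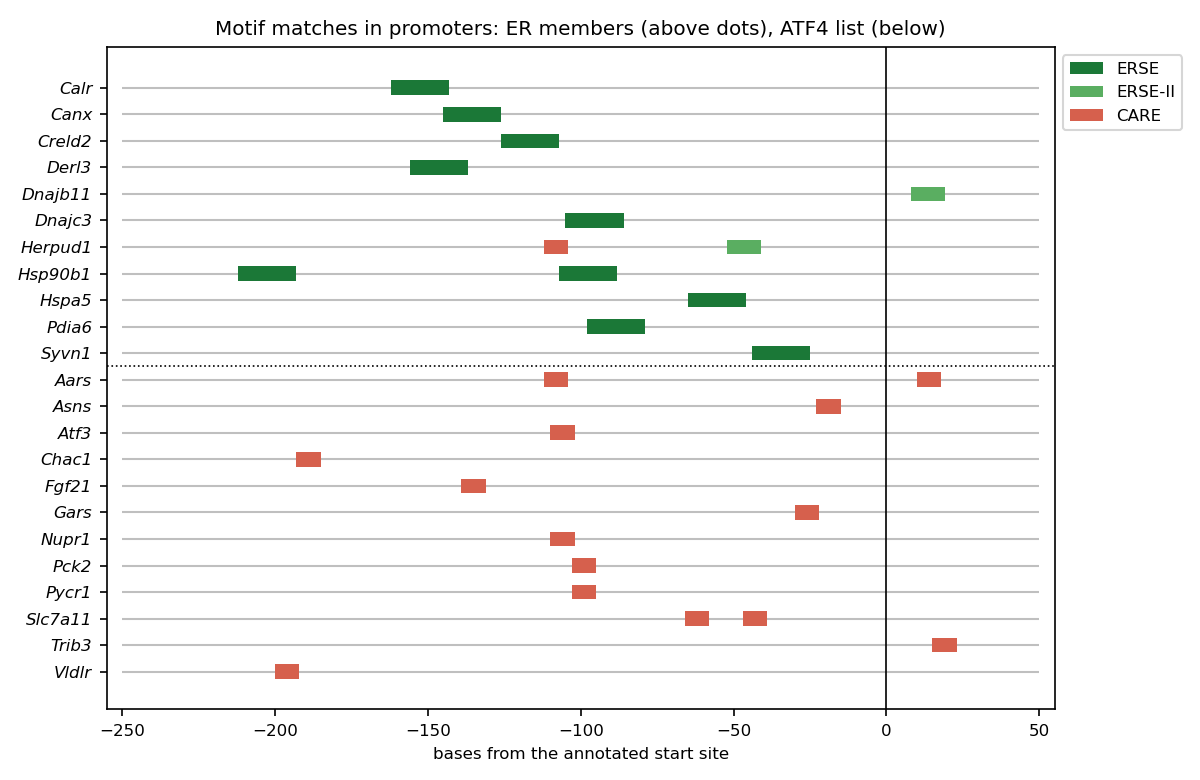
Positions of exact motif matches in bases from the annotated start site (vertical line), with 1 grey line per promoter of 300 bases. The 11 ER genes with a match, above the dotted line, hold ERSE (dark green) or ERSE-II (light green), and 12 genes of the ATF4 list, below it, hold CARE (red), which Herpud1 holds as well.

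Total counts were 5400160 to 8472907 per library. The batch 1 libraries stood apart, with 7893 (wildtype) and 5438 (Sdha-KO) genes detected, while the other 4 libraries had 11383 to 13050. Of the 32 ER genes, 4 were at 0 in the wildtype library of batch 1 and 13 in its Sdha-KO library, with 0 or 1 elsewhere. Where a gene is at 0, counting error alone leaves room for 3 counts, or 0.25 to 0.666 CPM, the count scaled to library size. Replicates 1 to 3 had 56.0, 65.5 and 72.2 CPM of Sdha in wildtype and 26.1, 21.01 and 22.8 CPM in Sdha-KO, without overlap. However, 3' reads may lie outside the deleted part. The fitted log2 fold change of Sdha was -1.47 (95% interval -3.25 to 0.31), so the deleted gene itself did not pass the edgeR test used below. The 16 alveolar macrophage markers summed to 13163 to 13719 in wildtype and 10532 to 12412 CPM in Sdha-KO. Of these 16, 11 were below 0 in fitted log2 fold change and 1, the ribonuclease Ear1, fell. Siglecf, a gene of the sorting gate, was at 0 in the Sdha-KO library of batch 1. Results are therefore given with and without both batch 1 libraries. In the 4 libraries then kept, Xist, from the inactive X, was at 1023 and 771 in wildtype and at 92.6 and 123 CPM in Sdha-KO. Ddx3y, on the Y, was at 0 and 18.2 CPM and at 65.8 and 64.4 CPM. The share of female and male RNA thus went with genotype in those 4, and the 2 cannot be told apart there. In batch 1 it went the other way, with Xist at 0 in wildtype and 224 CPM in Sdha-KO. Ddx3y was at 27.2 CPM in wildtype and 0 in Sdha-KO there.

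ER folding genes were not raised together in Sdha-KO macrophages. The main chaperones Hspa5, Calr, Hsp90b1 and Canx overlapped between genotypes. Among the disulfide isomerases, all Sdha-KO libraries had less Pdia3 and more P4hb than any wildtype library, without passing the test. Of all tested genes, 9.27% lay below and 5.04% above without overlap. The log2 fold change of P4hb was 1.13, and 0.39 without both batch 1 libraries. Of the 32 genes, 31 passed the filter on low counts, and 0 of these passed in either direction (quasi-likelihood test of edgeR, adjusted p under 0.05 after Benjamini and Hochberg), with 2 (Pdia3 and P4hb) under 0.05 before adjustment. Over all 9963 tested genes the test called 0.0401% higher and 0.01% lower in Sdha-KO. The fitted log2 fold change was above 0 for 9 and below 0 for 22 of the 31, with a median of -0.31, beside 45.0% above 0 and a median of -0.13 over all tested genes. Without both batch 1 libraries it was above 0 for 15 and the median was -0.03, beside 49.0% and -0.02 for all genes. Of the 12 tested members with no count in Sdha-KO replicate 1, 9 were below 0, and of the 19 with counts there 13 were. In bulk RNA, fewer expressing cells and less RNA per cell cannot be told apart.

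Within batches the directions were balanced except in batch 1. Sdha-KO was above wildtype for 6 of the 31 members in batch 1, with 22 below and 3 tied at 0, for 15 in batch 2 and for 16 in batch 3. Of all 9963 tested genes, 2634 were at 0 in the wildtype library of batch 1 and 4868 in its Sdha-KO library. Among the members, Sdha-KO was above wildtype in every batch for 3 (P4hb, Sel1l and Dnajb9) and below in every batch for 7. The 3 libraries of each genotype did not overlap for 1 member with Sdha-KO above (P4hb) and for 3 with Sdha-KO below (Pdia3, Sec61b and Os9), beside 5.04% and 9.27% of all tested genes. With 31 members, both counts are close to that background. In GENCODE M21 on mm10 these 4 genes lie at chr2:121413775-121438687 (Pdia3), chr11:120560298-120573253 (P4hb), chr4:47474658-47483242 (Sec61b) and chr10:127095650-127121131 (Os9), and Hspa5 at chr2:34771970-34777547. The promoter stretches above were placed by RefSeq start sites, which can differ from GENCODE. Those of Hspa5 and Atf3 lie within the GENCODE gene, and that of Asns does in part.

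**Figure D2:**
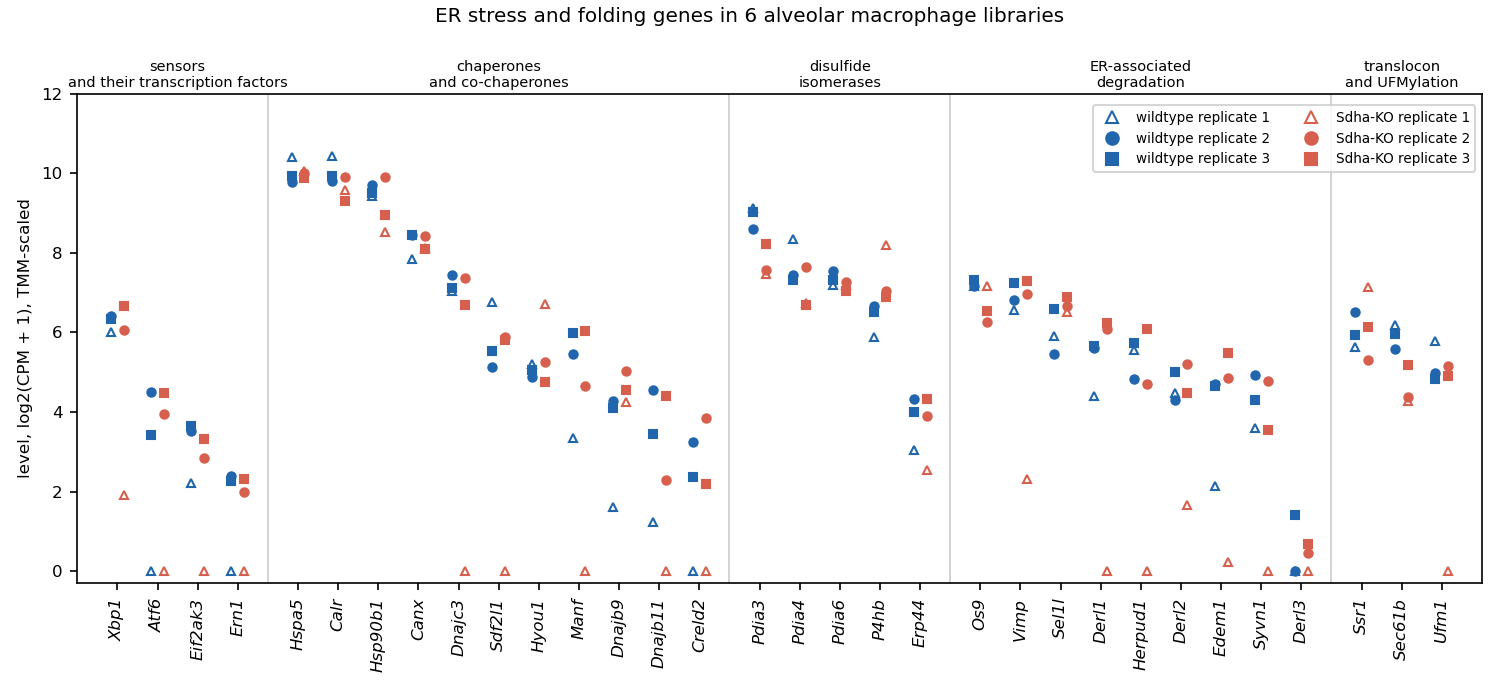
Level of each of the 32 genes, as log2(CPM + 1), in the 3 wildtype (blue) and 3 Sdha-KO (red) libraries, with open triangles for replicate 1, circles for replicate 2 and squares for replicate 3. Hspa5 and Calr are highest, and the 13 open red triangles at 0 are the genes without a count in Sdha-KO replicate 1.

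The ER genes spanned a wide range of levels in these cells. With this 3' kit a transcript gives reads at its end whatever its length, so CPM levels can be set side by side, as far as priming and mapping are alike. Hspa5, Calr and Hsp90b1 together made up 49.6% to 60.5% of the counts of the 32 genes, and all 32 made up 0.379% to 0.562% of the counts of a library. These shares are of totals in which the ribosomal RNA precursor row Rn45s took 20.9% (Sdha-KO replicate 1) to 57.6% (wildtype replicate 2). The mean level over 6 libraries ran from 1042 CPM for Hspa5 to 2.51 CPM for Ern1 and 0.437 CPM for Derl3. Derl3, a Derlin of secretory cells, had 0, 0 and 13 counts in wildtype and 0, 2 and 4 in Sdha-KO replicates 1 to 3, and it was not tested.

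The stress sensors were among the least abundant members. Ern1 had 0, 4.22 and 3.82 CPM in wildtype replicates 1 to 3 and 0, 2.98 and 4.02 CPM in Sdha-KO replicates 1 to 3. Eif2ak3 had 3.68, 10.4 and 11.6 CPM and 0, 6.14 and 9.09 CPM in the same order. Atf6 had 0, 21.5 and 9.80 CPM and 0, 14.5 and 21.3 CPM. Zeros fell in batch 1, and in all 3 genes the genotypes overlapped. Xbp1, the substrate of IRE1, was more abundant, at 63.2, 84.3 and 80.5 in wildtype and 2.75, 65.3 and 101 CPM in Sdha-KO replicates 1 to 3. Sdha-KO was below wildtype in batches 1 and 2 and above it in batch 3. Its log2 fold change of -0.43 (SE 0.920, edgeR adjusted p = 1.00) rested on Sdha-KO replicate 1, since without that library it was 0.13. Counts near the 3' end do not show whether Xbp1 was spliced or ATF6 cleaved.

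Hspa5 encodes BiP, the ER Hsp70 chaperone that holds the sensors inactive, and it is the gene most often read as a marker of ER stress. It had 1362, 879 and 978 CPM in wildtype replicates 1 to 3 and 1072, 1024 and 939 CPM in Sdha-KO replicates 1 to 3, so that the Sdha-KO libraries lay within the wildtype range. The means were 1073 ± 255 and 1012 ± 67.0 CPM (SD, n = 3 each). The fitted ratio of Sdha-KO to wildtype was 0.943, with a 95% interval from 0.623 to 1.43 (edgeR adjusted p = 1.00). Without both batch 1 libraries the log2 fold change was 0.09 with an interval from -0.36 to 0.54. Rises up to the upper ends of these intervals cannot be told from no change with these libraries. Hspa5 is the most precisely estimated member, with its ERSE in the stretch shown for Hspa5.

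Calreticulin and calnexin are lectin chaperones of the glycoprotein folding cycle, and Hsp90b1 encodes the ER Hsp90, GRP94. Calr had 1381, 900.3 and 981 in wildtype and 764, 956 and 630.5 CPM in Sdha-KO replicates 1 to 3, a ratio of 0.720 (95% interval 0.462 to 1.12). Hsp90b1 had 689.6, 834 and 725 CPM and 366, 961 and 493 CPM, a ratio of 0.809 (0.470 to 1.39). Canx had 229, 351 and 351 CPM and 278, 345 and 274 CPM, a ratio of 0.963 (0.584 to 1.59). In these 3 genes, as in Hspa5, the genotypes overlapped and the adjusted p was 1.00 (edgeR). The upper ends of the intervals lie between 1.12 and 1.59.

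The remaining chaperones and co-chaperones were less abundant, and 5 of these 7 were at 0 in Sdha-KO replicate 1. Hyou1, a large Hsp70-like exchange factor for BiP, had 35.9, 28.4 and 32.1 in wildtype and 104, 37.2 and 26.2 CPM in Sdha-KO replicates 1 to 3, so that its mean difference came from 1 library (log2 fold change 0.79, and -0.02 without Sdha-KO replicate 1). Dnajb9, a co-chaperone induced by XBP1 that restrains IRE1, had 2.08, 18.4 and 16.0 CPM and 18.1, 31.6 and 22.7 CPM. Sdha-KO was above in each batch, but the groups overlapped (log2 fold change 0.99, SE 1.66, edgeR adjusted p = 1.00). Dnajc3, the PERK pathway inhibitor P58IPK, had 130 to 172 in wildtype and 0, 164 and 103 CPM in Sdha-KO libraries. Sdf2l1, Manf, Dnajb11 and Creld2 also had 0 counts in Sdha-KO replicate 1 and overlapped between genotypes. In batches 2 and 3, Sdf2l1, a partner of Dnajb11, was at 34.2 and 45.6 in wildtype and 58.4 and 55.1 CPM in Sdha-KO, while the secreted stress factor Manf was at 43.1 and 61.9 and at 24.4 and 65.0 CPM.

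The 11 members with an ERSE or ERSE-II showed no excess of log2 fold changes above 0. Of the 10 that were tested, the log2 fold change was above 0 for 1 (Creld2) and below 0 for 9, and without both batch 1 libraries it was above 0 for 3 and below for 7. For all tested genes the shares above 0 were 45.0% and 49.0%. Of the tested members with a motif, Creld2, Dnajb11, Dnajc3, Herpud1 and Syvn1 had no count in Sdha-KO replicate 1. Herpud1, with both an ERSE-II and a CARE match, had 46.2, 27.3 and 52.6 in wildtype and 0, 24.9 and 67.2 CPM in Sdha-KO replicates 1 to 3, with overlap.

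**Figure D3:**
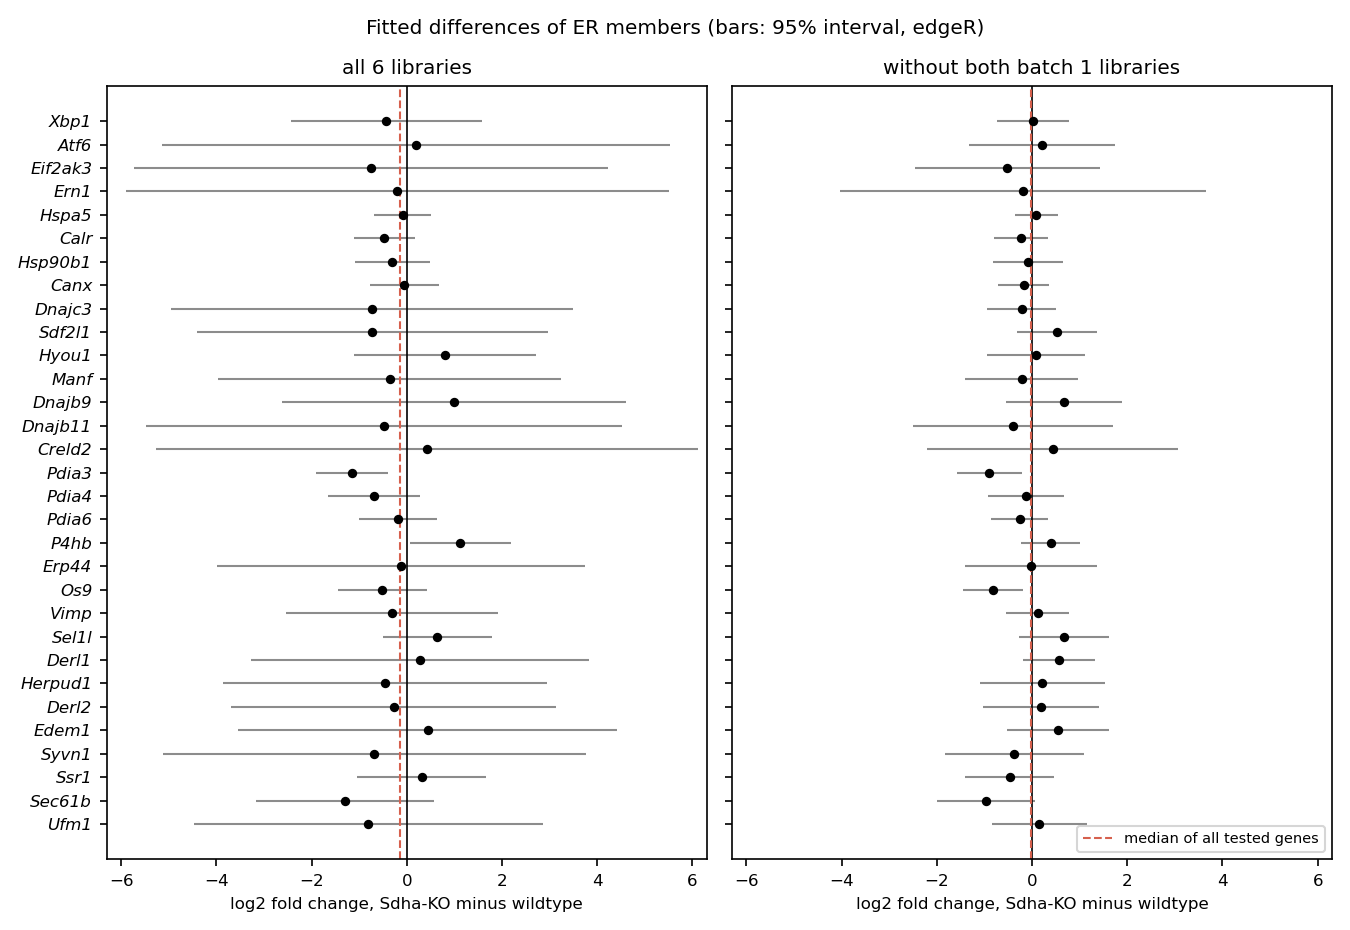
Fitted log2 fold change of the 31 tested members (points) with 95% intervals (bars), from all 6 libraries (left) and without both batch 1 libraries (right), with the median of all tested genes as a dashed line. Intervals of Hspa5 and Canx are narrow and span 0, those of the sensors are wide, and Pdia3 lies below 0 in both panels.

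Disulfide isomerases form and rearrange disulfide bonds in folding proteins. Pdia3, the isomerase ERp57 that works with calreticulin and calnexin and also serves in MHC class I assembly, had 557, 388 and 521 in wildtype and 175, 189 and 296 CPM in Sdha-KO replicates 1 to 3. Every Sdha-KO library lay below every wildtype library, with means of 489 ± 88.8 and 220.2 ± 66.2 CPM (SD, n = 3). The level was 2.22-fold lower (log2 fold change -1.15, SE 0.343, 95% interval -1.90 to -0.40), which did not pass over all genes (edgeR adjusted p = 1.00). Without both batch 1 libraries the log2 fold change was -0.89 (adjusted p = 0.370), and a block for the replicate number brought it to -0.91 (adjusted p = 0.0102), the 1 setting of 18 in which a member passed. That setting called 3.01% of 10757 genes, against 0.251% without the block. It fits batch and genotype to 4 libraries, 1 per genotype in each batch, so its p leans on variation shared across genes. The share of female and male RNA also went with genotype in those 4 libraries. Pdia3 was lower in every setting run, with log2 fold changes from -1.43 to -0.89. Its exons overlap those of Catsper2 on the other strand, and nothing in the sources used here says whether counting used strand.

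P4hb encodes the classical protein disulfide isomerase. It had 57.7, 101 and 89.9 in wildtype and 294, 131 and 117 CPM in Sdha-KO replicates 1 to 3, without overlap. The level was 2.18-fold higher (95% interval 1.05 to 4.55, edgeR adjusted p = 1.00), but the log2 fold change of 1.13 became 0.39 without both batch 1 libraries (adjusted p = 0.725). The difference was largest in batch 1. Pdia4 had 324, 174 and 158 CPM and 107, 197 and 102 CPM (log2 fold change -0.69, SE 0.445). Pdia6, which can attenuate IRE1 signalling, had 145, 186 and 159 CPM and 145, 154 and 131 CPM (log2 fold change -0.19, SE 0.378). Both overlapped between genotypes, as did Erp44, which retains clients by thiol bonds, at 7.23 to 19.1 in wildtype and 4.84 to 19.2 CPM in Sdha-KO. Of 5 isomerases, 4 were below 0 and 1 above, with Pdia3 and P4hb apart from the rest.

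**Figure D4:**
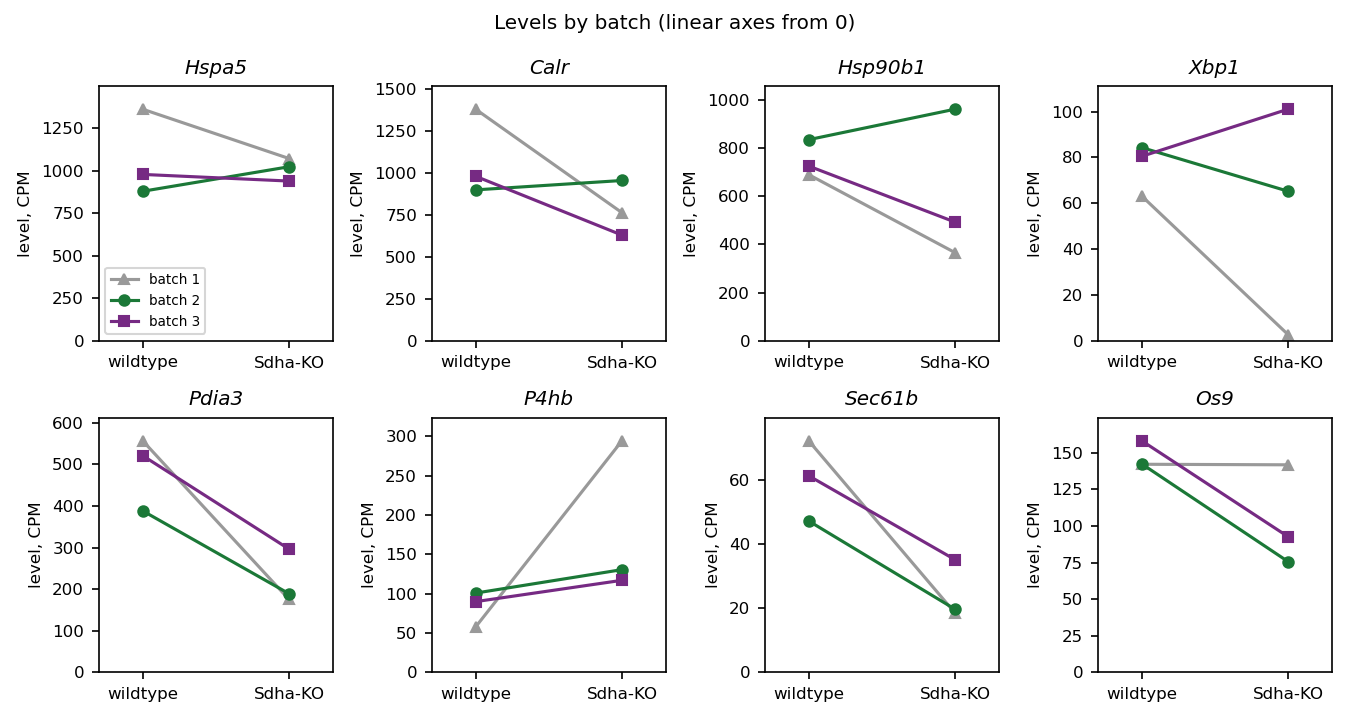
Level in CPM of 8 members in wildtype and Sdha-KO libraries, with a line joining the 2 libraries of each batch and linear axes from 0. Pdia3 and Sec61b are lower in Sdha-KO in every batch and P4hb is higher in every batch, while Hspa5 differs little and Xbp1 is at 2.75 CPM in the batch 1 Sdha-KO library.

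Factors of ER-associated degradation recognise misfolded proteins and pass them through the membrane to the proteasome. Os9, a lectin that delivers glycoproteins for degradation, had 142, 142 and 158 in wildtype and 142, 75.7 and 92.7 CPM in Sdha-KO replicates 1 to 3. The highest Sdha-KO library lay under 1 CPM below the lowest wildtype library. The log2 fold change was -0.51 (SE 0.428, edgeR adjusted p = 1.00), and leaving out both batch 1 libraries made it -0.82 (adjusted p = 0.378). Sel1l, the scaffold of the ubiquitin ligase to which Os9 delivers its clients, went the other way, with 59.7, 42.8 and 95.6 in wildtype and 90.04, 101 and 118 CPM in Sdha-KO replicates 1 to 3. It was above wildtype in each batch with a log2 fold change of 0.64 (95% interval -0.50 to 1.78), and the groups overlapped. Vimp, now named Selenos, a membrane selenoprotein that binds Derlins and p97, had 94.0, 111 and 150 CPM and 4.01, 125 and 157 CPM.

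The other degradation factors were lower in abundance. Derl1, a channel component, had 20.2, 47.5 and 49.5 in wildtype and 0, 66.9 and 75.1 CPM in Sdha-KO replicates 1 to 3, and the mannosidase-like Edem1 had 3.43, 25.1 and 24.2 CPM and 0.167, 27.7 and 43.5 CPM. Derl2 and the ligase Syvn1 ranged from 11.2 to 31.3 in wildtype and from 0 to 35.7 CPM in Sdha-KO libraries, with overlap. Of 8 tested degradation factors, 4 (Sel1l, Derl1, Edem1 and Vimp) were higher in Sdha-KO in both batch 2 and batch 3. In Vimp these differences were small (0.17 and 0.06 in log2). Another 2 (Os9 and Syvn1) were lower in both, and none passed. Of all 9963 tested genes, 2802 were higher in both and 3223 lower in both. The fitted log2 fold change was above 0 for 3 of the 8, and for 6 without both batch 1 libraries, beside 45.0% and 49.0% of all tested genes.

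Sec61b, a small subunit of the translocation channel, had 72.3, 47.3 and 61.4 in wildtype and 18.5, 19.7 and 35.2 CPM in Sdha-KO replicates 1 to 3. The genotypes did not overlap, and the level was 2.46-fold lower with a 95% interval of the log2 fold change from -3.18 to 0.58 (edgeR adjusted p = 1.00). Without both batch 1 libraries the log2 fold change was -0.97 (adjusted p = 0.509). Ssr1, of the translocon-associated complex, had 49.0, 90.5 and 60.6 CPM and 141, 38.7 and 69.3 CPM, with no common direction over batches. Ufm1, a ubiquitin-like modifier attached to ribosomes at the ER, had 54.0, 30.6 and 27.4 CPM and 0, 35.0 and 29.1 CPM, close together in batches 2 and 3.

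A wider list of 65 other ER folding, translocation and degradation genes was also spread to both sides of 0. Of 60 tested, 27 were above 0 and 33 below, the median log2 fold change was -0.08, and none passed in either direction. With the batch 1 libraries left out, 39 of 63 were above 0 (61.9%, beside 49.0% of all genes) and the median was 0.12, again with none past the test. Sdha-KO libraries were all above wildtype in 4 of the 60 and all below in 1, beside the 5.04% and 9.27% of all tested genes. The 4 most abundant of these 5 were Sdf4 (43.7 ± 16.3 in wildtype and 62.7 ± 2.68 CPM in Sdha-KO), the oligosaccharyltransferase subunit Ostc (32.5 ± 4.31 and 66.4 ± 16.4 CPM), the BiP exchange factor Sil1 (21.7 ± 3.91 and 37.1 ± 7.49 CPM) and the calcium-binding Calu (12.3 ± 8.51 and 40.4 ± 13.8 CPM; SD, n = 3). All 4 were higher in Sdha-KO without passing.

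Most genes of the ATF4 list lay above 0. Of 40 listed genes 33 were tested, and 31 of these were above 0 with a median log2 fold change of 0.95, beside 45.0% and -0.13 for all tested genes and 9 of 31 and -0.31 for the ER members. In batches 2 and 3 alone, 29 of 33 were above 0 with a median of 0.85. A gene could pass the filter on low counts through 1 genotype alone. Asns did so through Sdha-KO, so its direction followed from its entry. With 10 counts asked in all 3 libraries of a group, which Asns also meets through Sdha-KO, 23 of 24 were above 0 (median 0.76). With no filter it was 34 of 36 (median 0.99). One member, Gdf15, passed, beside 0.0401% of all tested genes called higher. Sdha-KO libraries were all above wildtype in 8 of the 33 and all below in 1, beside 5.04% and 9.27% of all tested genes. The difference between the 2 lists was not tested, and the ATF4 list was drawn up with earlier results of these data known, so its direction is not independent evidence. Immediate early and heat shock genes, which tissue handling can induce and which share Atf3 with the list, were also above 0 in 15 of 20 (median 0.63), and their part in the result was not tested.

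**Figure D5:**
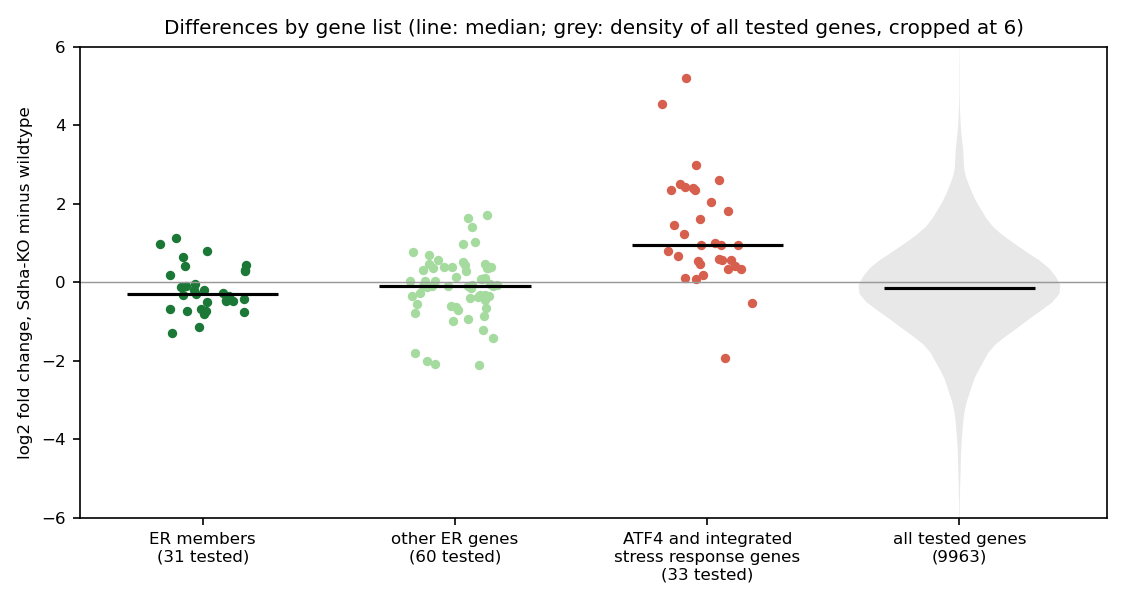
Fitted log2 fold change, Sdha-KO minus wildtype, of each tested gene (points) in 3 lists, with the density of all 9963 tested genes in grey (cropped at 6) and medians as lines. The ER members and the other ER genes sit around the median of all genes, at -0.31 and -0.08 against -0.13, and the ATF4 list has its median at 0.95.

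Atf4 itself had 344, 361 and 289.5 in wildtype and 529.6, 564 and 497 CPM in Sdha-KO replicates 1 to 3, without overlap. The level was 1.60-fold higher (log2 fold change 0.68, SE 0.294, edgeR adjusted p = 1.00). The adjusted p was 0.0396 without both batch 1 libraries with the block, a setting with the limits given for Pdia3. It was 0.363 or more in the other settings. Gdf15, a stress cytokine, had 268, 333 and 270.2 CPM and 3798, 1673 and 1451 CPM and rose 7.95-fold (adjusted p = 0.0137). It did not pass with the replicate block (0.402), without wildtype replicate 1 (0.148) or with 10 counts asked in all 3 libraries of a group (0.130). Ppp1r15a, the phosphatase subunit GADD34 that reverses eIF2alpha phosphorylation, had 13.5, 35.7 and 32.2 CPM and 72.8, 217 and 206 CPM (adjusted p = 0.483, and 3.58e-06 to 1.00 over other settings); its exons overlap those of Tulp2. Asns, asparagine synthetase, had 0, 3 and 5 counts in wildtype and 217, 57 and 139 in Sdha-KO replicates 1 to 3, so that wildtype libraries were at or near the floor.

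Of the stress factors downstream of ATF4, Ddit3, which encodes the transcription factor CHOP, had 14.0, 42.6 and 39.9 in wildtype and 41.8, 42.2 and 56.8 CPM in Sdha-KO replicates 1 to 3, with overlap (log2 fold change 0.55, SE 0.928). Trib3, a pseudokinase induced by ATF4 and CHOP, had 0, 0 and 12 counts in wildtype and 0, 60 and 178 in Sdha-KO replicates 1 to 3. Chac1 had no count in any library. Thus Trib3 was higher in Sdha-KO in batches 2 and 3, and Ddit3 was nearly equal in batch 2.

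The kinases of eIF2alpha did not move together. Eif2ak3 (PERK) is given above. Eif2ak1, the kinase HRI that relays haem shortage and mitochondrial stress, had 50.7, 27.5 and 36.9 in wildtype and 124, 69.5 and 21.2 CPM in Sdha-KO replicates 1 to 3. Eif2ak4, the amino acid sensor GCN2, had 103, 59.9 and 64.0 CPM and 17.5, 27.0 and 48.6 CPM, without overlap and lower in Sdha-KO. Eif2ak2, the kinase PKR, had 0, 7.10 and 13.2 CPM and 34.9, 2.98 and 2.68 CPM. None passed (edgeR adjusted p = 1.00 each), and mRNA levels do not show kinase activity.

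Markers of other cells were examined because secretory cells hold much ER. Of 10 B and plasma cell markers with a row, 7 were tested and 4 were above 0, and the list summed to 32.2 to 87.1 in wildtype and 7.68 to 68.3 CPM in Sdha-KO libraries. Jchain, which plasma cells express strongly, had no count in 4 of 6 libraries and at most 4.71 CPM. Dendritic cell markers were above 0 in 6 of 7 tested (47.3 to 59.8 in wildtype and 49.2 to 279 CPM in Sdha-KO), and monocyte and interstitial macrophage markers in 7 of 8 (99.9 to 194 and 79.5 to 271 CPM). Neutrophil markers were above 0 in 5 of 5 (76.3 to 107 and 176 to 238 CPM), and T and NK cell markers in 0 of 3 (268 to 524 and 72.3 to 197 CPM). Of all tested genes, 45.0% were above 0. Many marker rows were at 0 in batch 1, in wildtype and Sdha-KO in turn. These were 9 and 8 of 10 for B and plasma cells, 7 and 6 of 10 for dendritic cells and 6 and 8 of 10 for monocytes. For neutrophils it was 5 and 4 of 8, and for T and NK cells 6 and 6 of 7. The part of these cells in the levels of ER genes was not tested.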

How the data were processed

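RNA of 6 libraries was made with a 3' mRNA kit, per the labels' protocols. The authors deposited 1 table of raw read counts per gene symbol, with no normalization visible in the values. Bowtie2, bedtools and mm10 are named, per the submitters' processing notes. Versions, annotation, strand setting and the handling of multiple matches were not given in the sources used here. Exons of 9 of the 32 members overlap another gene (Hsp90b1, Pdia3, Pdia4, Pdia6, Manf, Derl2, Dnajb9, Eif2ak3 and Syvn1), so their counts are uncertain.

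Genotypes were compared over all genes with edgeR 4.0.16 in R 4.3.3 (genotype as the only term, robust quasi-likelihood F-test, TMM factors, filterByExpr at a minimum of 10 counts, Benjamini-Hochberg threshold 0.05). CPM values are TMM-scaled. The SE is the log2 fold change divided by the square root of F, and intervals use the fit's t distribution. Replicate numbers equal the labels' batch numbers, so they pair the libraries; deviations from group means correlated at 0.155, 0.117 and 0.126 for same-numbered libraries and at -0.152 to 0.111 for the others. No pair of libraries agreed within counting noise. Alternatives were RLE factors, library totals, other filters, DESeq2 1.42.0, limma-voom (limma 3.58.1), the replicate block, and leaving out libraries or rows. Promoters are from RefSeq (GRCm38.p6) and exon overlaps from GENCODE M21.

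Members and lists were chosen with earlier results of these data known. Values in every library are given for the sensors and Xbp1, members that passed in any setting or did not overlap, and the 3 most abundant of each role. From the other lists, genes that passed, or else the 4 most abundant without overlap, and 7 fixed ATF4 genes were named, with the eIF2alpha kinases. Others (such as Hyou1, Dnajb9 and Herpud1) were named after their values were seen.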

Additional observations from a re-analysis of the deposited data

How the results depend on the processing

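No ER member passed in 17 of 18 other settings, and 1 (Pdia3, lower) passed without both batch 1 libraries with the replicate block; 0 passed as higher in any. The median log2 fold change of the members stayed between -0.80 (limma-voom) and 0.0004 (without Sdha-KO replicate 1), beside -0.65 and 0.06 for all genes in the same settings. Library totals alone moved the median of all genes from -0.13 to 0.05, with 13 of 31 members then above 0. Of 31 members, 12 kept their sign in every setting (3 positive, 9 negative) and 19 did not.

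Over all genes, 5 passed. The count was 9 with library totals alone, 48 with no filter, 21 with DESeq2, 20 with limma-voom, 72 with DESeq2 and the block, 27 when both batch 1 libraries were left out and 324 when the replicate block was added to that. It was 0 under the stricter filter of 10 counts in each library of a group (255 below 0.05 before adjustment) and 0 with the replicate block (296), and 0 to 13 when 1 replicate was left out.

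Some of the sign changes are given here. Ern1, Atf6, Creld2, Dnajb11 and Manf also changed sign in at least 1 setting. With library totals alone the log2 fold change was 0.19 for Hspa5, 0.23 for Canx and 0.12 for Pdia6, and Erp44 also turned positive. With limma-voom the log2 fold change was -3.71 for Derl1 and -1.72 for Edem1, and Atf6 and Creld2 also turned negative. With the replicate block Derl1 and Edem1 turned negative. Without both batch 1 libraries it was 0.091 for Hspa5, 0.025 for Xbp1 and -0.47 for Ssr1, and with the block as well 0.091 for Hspa5 and -0.50 for Ssr1; in both, Sdf2l1, Herpud1, Derl2, Vimp and Ufm1 also turned positive. Leaving out 1 replicate gave ranges of -0.22 to 0.12 for Hspa5, -0.24 to 0.042 for Canx, -1.17 to 0.13 for Xbp1, -0.30 to 0.67 for Ssr1 and -0.017 to 1.13 for Hyou1. The standard error was largest for members with libraries at 0 (2.62 for Ern1 and 2.62 for Creld2), and those zeros fell mostly in batch 1, whose libraries had the highest total counts.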
